A study of Mus musculus with 6 samples.

Results

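The mitosis and spindle genes described here are 47 genes whose products take a cell into mitosis, attach and move its chromosomes and divide it. They were listed by function and matched by symbol to rows of the deposited count table, which holds 27179 gene IDs, and all 47 were found. They were proposed with earlier knockout-against-wildtype values of these same libraries in view, so their differences between the genotypes are given as a description, with no test.

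RNA was sequenced from calvarial osteoblasts, the cells that form the flat bones of the skull, sorted from C57Bl/6J pups aged 5 days. By their labels 3 libraries are Cdc73/Hrpt2 KO (a conditional knockout, titled Flox) and 3 are wildtype. In both genotypes the digested cells were sorted for transgenic GFP controlled by Osteocalcin-Cre, a recombinase driven by a promoter of mature osteoblasts. The labels do not say whether each library came from its own animal, litter or pool, so p-values measure only the spread between these libraries, which may be partly technical.

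Dividing cells build up a shared set of transcripts before mitosis and clear them after it. The kinase Cdk1 with its B-type cyclins starts mitosis, Plk1 and the Aurora kinases shape the spindle, and the spindle checkpoint holds Cdc20 back from the anaphase-promoting complex until every kinetochore is attached. In resting cells many of these genes are kept low by the MuvB and DREAM complexes, which bind the cell cycle homology region (CHR) of their promoters, while NF-Y binds their CCAAT boxes. Osteoblasts divide mainly before they mature, so in bone such transcripts mark the cycling fraction of a cell population.

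Library totals ran from 13591925 counts in wildtype 2 to 20993962 in wildtype 1. CPM here means a count times 1000000, divided by its library's effective size (the total times edgeR's TMM factor), which puts all 6 libraries on 1 scale. The TMM factor was 0.813 in knockout 3 and 0.971 to 1.09 in the other libraries. Differences are given as edgeR's log2 fold change, knockout over wildtype, ± its standard error. Cdc73 itself (gene ID 214498) measured 14.0, 14.7 and 14.4 CPM in knockout 1, 2 and 3 and 20.5, 12.8 and 21.7 CPM in wildtype 1, 2 and 3. Wildtype 2 lay below every knockout library, and because the count covers the whole gene it does not check every label, so all directions refer to the libraries as labelled. The 9 osteoblast markers examined summed to between 232946 and 342406 CPM in the 6 libraries, nearly all of it from Col1a1 and Col1a2. Of these 9 markers 8 had a negative fold change (median -0.37), where 50.7% of all genes tested were negative. Only 1 of the 9 lay lower in every knockout library (9.81% of all genes) and 0 lay higher. It was Sp7, a transcription factor of osteoblast formation (adjusted p = 0.277 in edgeR). Sp7 measured 127, 131 and 182 CPM in knockout 1, 2 and 3 against 208, 222 and 244 CPM in wildtype 1, 2 and 3. The part of this in the levels of the mitotic genes was not tested. Over all 13505 genes that passed the filter on low counts, the edgeR quasi-likelihood test called 0 genes (0.0%) at a Benjamini-Hochberg adjusted p of 0.05. An unadjusted p under 0.05 was seen for 1974 genes, DESeq2 called 248 (1.84%) and edgeR without wildtype 1 called 409 (2.96%).

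The members share promoter features that the choice of genes did not use. RefSeq promoter windows of the mm10 assembly (250 bases before to 50 bases after the annotated start) were at hand for 39 of the 47 genes and for 18458 genes of the table. The letters TTTGAA, the core of the CHR, stood on either strand in 28 of the 39 members, or 71.8%, against 18.1% of all genes with a window. The letters CCAAT stood in 28 of 39 members (71.8%) against 42.2% of all genes, and 19 members held 2 or more of them (48.7% against 14.4%). Both motifs occurred together in 24 members (61.5%) against 7.4% of all genes. The CHR variant TTCGAA was found in 10.3% of members and 2.1% of all genes, the E2F-like letters TTGGCGC in 12.8% and 3.6%, and TTCCCGC in 0 members against 6.8% of all genes. The TATA letters TATAAA were found in 1 member, Kif2c (2.6% of members against 14.5% of all genes). The window of Kif2c (chr4:117178723-117179022, minus strand) was set at a start inside the gene, which reaches to position 117182624. The windows of Pttg1, Cdc25b, Ect2 and Aurka also lay inside the spans of their genes. Every search used both strands and every listed window of a gene. A TTGGCGC can share bases with the reverse complement of a CCAAT, and a match describes letters and is not a measured binding site.

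The stretches from position -150 to position 30, counted from the annotated start, follow for the 5 members of highest CPM that hold both motifs in that stretch. They are shown because the spacing of both elements can be read in them. Each runs from 5′ to 3′ on the strand of the gene, in mm10 coordinates, and capitals mark CCAAT and TTTGAA or their reverse complements ATTGG and TTCAAA.
Top2a (chr11:99024160-99024339, minus strand): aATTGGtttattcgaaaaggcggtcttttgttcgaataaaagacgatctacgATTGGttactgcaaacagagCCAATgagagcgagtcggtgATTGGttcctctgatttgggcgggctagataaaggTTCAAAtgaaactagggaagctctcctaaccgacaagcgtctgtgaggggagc
Mki67 (chr7:135716350-135716529, minus strand): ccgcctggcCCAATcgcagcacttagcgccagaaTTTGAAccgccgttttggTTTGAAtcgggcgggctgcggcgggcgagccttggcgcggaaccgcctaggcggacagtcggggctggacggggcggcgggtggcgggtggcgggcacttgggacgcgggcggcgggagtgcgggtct
Bub3 (chr7:131560220-131560399, plus strand): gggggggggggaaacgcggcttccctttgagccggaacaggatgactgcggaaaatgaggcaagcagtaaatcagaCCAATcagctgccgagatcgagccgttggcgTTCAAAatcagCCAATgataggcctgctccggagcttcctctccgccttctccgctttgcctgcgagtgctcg
Cdk1 (chr10:69352883-69353062, minus strand): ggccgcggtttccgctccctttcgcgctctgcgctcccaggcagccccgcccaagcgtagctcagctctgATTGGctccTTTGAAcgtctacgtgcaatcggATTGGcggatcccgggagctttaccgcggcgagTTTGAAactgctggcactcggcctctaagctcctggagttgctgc
Racgap1 (chr15:99651627-99651806, minus strand): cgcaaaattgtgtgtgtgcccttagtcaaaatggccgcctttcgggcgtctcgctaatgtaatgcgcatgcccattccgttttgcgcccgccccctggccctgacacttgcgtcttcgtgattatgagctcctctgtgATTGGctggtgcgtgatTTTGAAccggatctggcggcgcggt
In Cdk1 a CHR began at position -15, with a CCAAT box 33 bases upstream of it. In Top2a the CHR nearest the start began at position -23, with the preceding CCAAT box 35 bases upstream. Racgap1 had its CHR at position 6 and a CCAAT box upstream of it that began at position -12. In Mki67 both CHR matches lay farther from the start, at positions -116 and -98.

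The CHR matches of the members clustered at the start. Of 36 CHR matches in the members' windows (the first listed window of each gene), 28 lay within 50 bases of the start (77.8%), against 22.9% of the 3427 matches in all genes, for a span that makes up 33.3% of the window. The median position of a CHR was 3.5 in members and -134 in all genes. Where a CCAAT box lay upstream of a CHR, the median distance between their first bases was 32.5 bases over 28 pairs in members and 56 bases over 715 pairs in all genes. Distances were differences of positions, which makes them a single base too long in pairs that span the start.

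**Figure D1:**
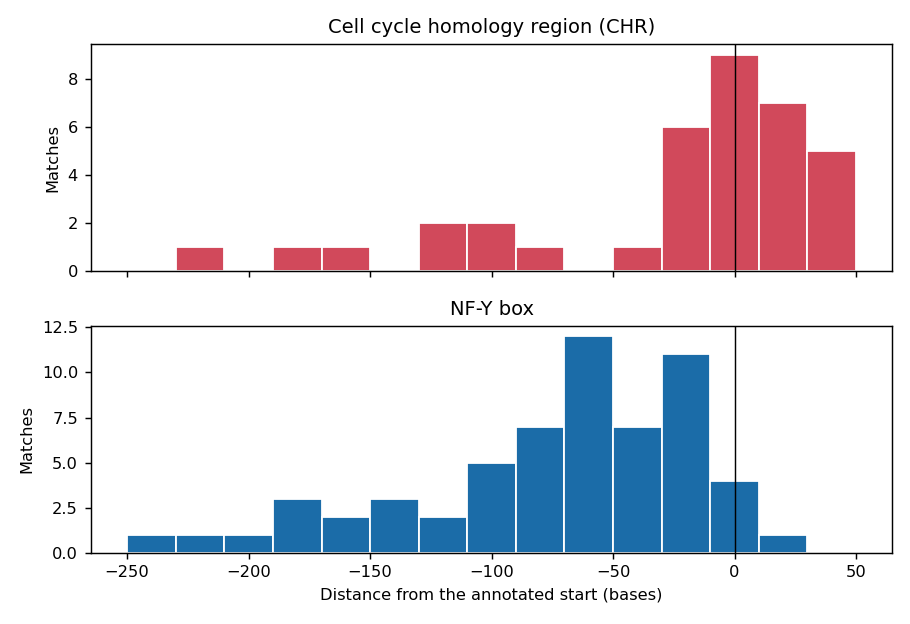
Positions of CHR matches (upper panel) and CCAAT (NF-Y) box matches (lower panel) in the promoter windows of 39 mitosis and spindle genes, as histograms with the annotated start at 0. Of 36 CHR matches 28 lie within 50 bases of the start, and the 60 CCAAT matches lie mostly upstream of them, with a median position of -55.

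All 47 genes passed the filter on low counts and were detected in every library, from 31 counts for Cdc25c in knockout 3 to 2450 counts for Top2a in wildtype 1. Together they took 0.0525% to 0.0719% of all counts in the knockout libraries and 0.0994% to 0.106% in the wildtype libraries. Their summed level was 707, 720.0 and 646 CPM in knockout 1, 2 and 3 and 916, 1001 and 924 CPM in wildtype 1, 2 and 3, so every knockout library lay below every wildtype library. In these bulk samples fewer dividing cells and less of each transcript per dividing cell cannot be told apart. The log2 fold change was negative for 46 of the 47 genes, where 50.7% of all genes tested were negative, and the median was -0.53 against -0.01 over all genes. In 32 genes every knockout library lay below every wildtype library, which was so for 9.81% of all genes tested, and in 0 genes every knockout library lay above (10.6% of all genes). Since the genes were chosen with this contrast known, these shares describe them and support nothing further.

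**Figure D2:**
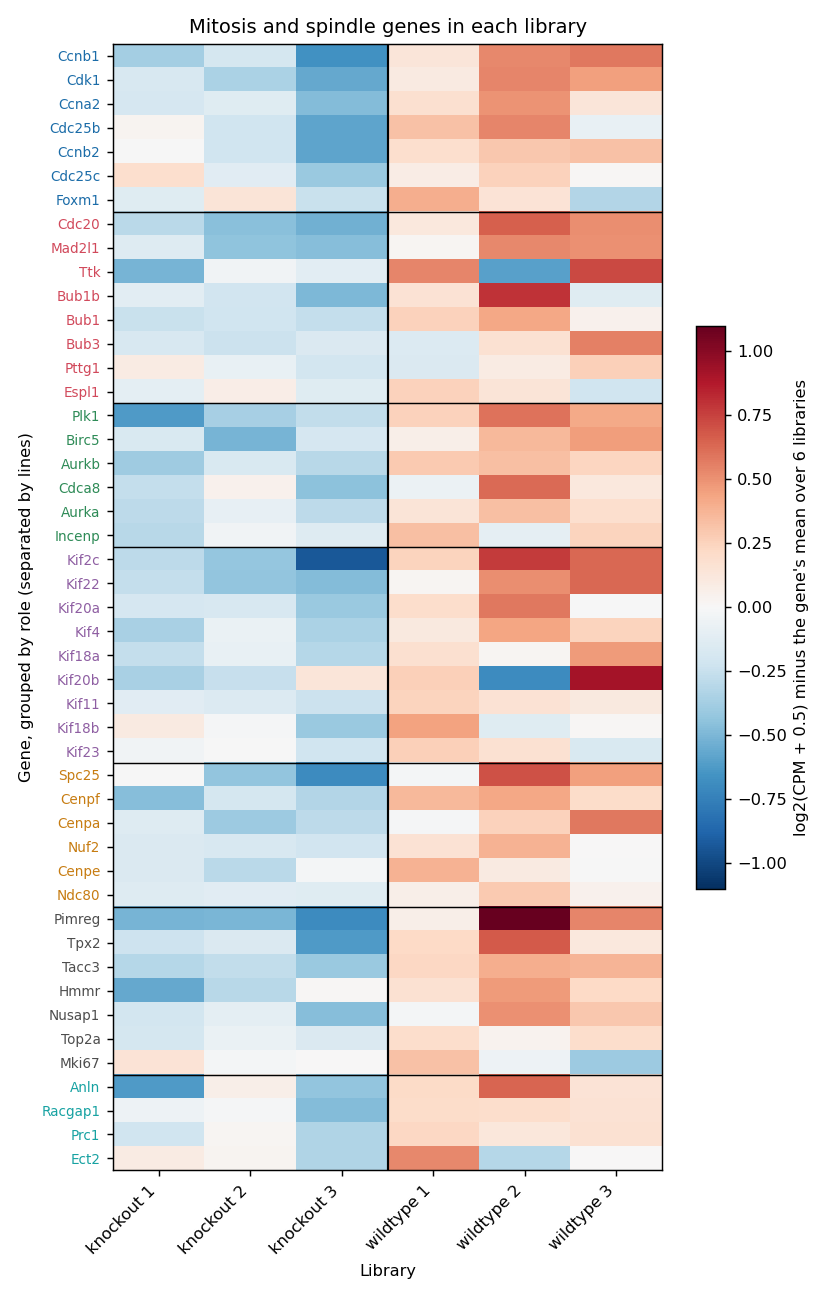
Level of each of the 47 genes in each library as log2(CPM + 0.5) minus the gene's mean over the 6 libraries, with genes in rows grouped by role and libraries in columns. Most rows are blue in the 3 knockout libraries and red in the 3 wildtype libraries, and 29 of the 47 genes have their lowest value in knockout 3.

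Libraries of 1 genotype also differed among themselves. The lowest value of a gene stood in knockout 3 for 29 genes, in knockout 1 for 9, in knockout 2 for 4, and in wildtype 3 and wildtype 2 for 3 and 2. The highest value stood in wildtype 2 for 25 genes and in wildtype 1 and wildtype 3 for 11 each, and 0 genes were highest in a knockout library. Averaged over the 47 genes as log2(CPM + 0.5) centred on each gene's mean, knockout 1, 2 and 3 stood at -0.21, -0.18 and -0.35 and wildtype 1, 2 and 3 at 0.18, 0.32 and 0.23.

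Of the 7 genes of mitotic entry, 7 were negative (median -0.53), against 50.7% of all genes tested. In 4 the genotypes did not overlap, with every knockout library lower, which was so for 9.81% of all genes. The counts here and in the roles below describe genes chosen with the contrast known. Cdk1 (gene ID 12534, chromosome 10), whose kinase starts mitosis, measured 22.7, 20.1 and 17.2 CPM in knockout 1, 2 and 3 and 27.5, 37.4 and 35.3 CPM in wildtype 1, 2 and 3. All 3 knockout libraries lay below the lowest wildtype library, and the log2 fold change was -0.74 ± 0.18. Its partner cyclin B1, Ccnb1 (gene ID 268697, chromosome 13), measured 5.16, 5.91 and 4.11 CPM in knockout 1, 2 and 3 and 7.52, 10.1 and 10.4 CPM in wildtype 1, 2 and 3, again without overlap (-0.88 ± 0.24). Cyclin A2, Ccna2 (gene ID 12428, chromosome 3), which acts from S phase to early mitosis, measured 23.5, 24.4 and 19.2 CPM in knockout 1, 2 and 3 and 30.3, 37.9 and 29.4 CPM in wildtype 1, 2 and 3 (-0.54 ± 0.17). The groups were separate for this gene too. The transcription factor Foxm1 (gene ID 14235, chromosome 6), an activator of many mitotic genes, measured 15.7, 19.1 and 14.5 CPM in knockout 1, 2 and 3 and 22.9, 19.2 and 13.7 CPM in wildtype 1, 2 and 3. Its groups overlapped, with wildtype 3 below every knockout library (-0.18 ± 0.22). Cyclin B2 (Ccnb2) stood at 14.0 ± 2.84 against 20.2 ± 1.04 CPM without overlap (-0.53 ± 0.19). Of the phosphatases that activate Cdk1, Cdc25b stood at 12.2 ± 2.64 against 17.8 ± 3.86 CPM (-0.53 ± 0.23) and Cdc25c at 3.28 ± 0.768 against 3.88 ± 0.381 CPM (-0.24 ± 0.30), both with overlap.

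Among 6 mitotic kinases and members of the chromosomal passenger complex, 6 were negative (50.7% of all genes), with a median of -0.54. In 4 the groups did not overlap, with the knockout lower (9.81% of all genes). The polo-like kinase Plk1 (gene ID 18817, chromosome 7), which acts on centrosomes, kinetochores and cytokinesis, measured 6.78, 8.20 and 8.80 CPM in knockout 1, 2 and 3 and 12.9, 16.5 and 14.5 CPM in wildtype 1, 2 and 3. The highest knockout library lay well under the lowest wildtype library (-0.88 ± 0.20). Survivin, encoded by Birc5 (gene ID 11799, chromosome 11), a subunit of the passenger complex, measured 12.5, 9.73 and 12.3 CPM in knockout 1, 2 and 3 and 14.7, 18.2 and 19.5 CPM in wildtype 1, 2 and 3 (-0.60 ± 0.19). The scaffold of that complex, Incenp (gene ID 16319, chromosome 19), measured 14.8, 17.999 and 16.7 CPM in knockout 1, 2 and 3 and 23.3, 17.2 and 22.0 CPM in wildtype 1, 2 and 3. Here wildtype 2 lay within the knockout range and the fold change was smaller (-0.34 ± 0.18). Borealin, encoded by Cdca8 (gene ID 52276, chromosome 4), measured 10.8, 13.5 and 9.38 CPM in knockout 1, 2 and 3 and 12.5, 20.3 and 14.2 CPM in wildtype 1, 2 and 3, and knockout 2 lay above wildtype 1 (-0.47 ± 0.23). The kinases themselves were both without overlap, with Aurka, which acts at spindle poles, at 7.20 ± 0.628 against 9.94 ± 0.748 CPM (-0.46 ± 0.19) and Aurkb, the passenger complex kinase, at 7.85 ± 0.652 against 11.9 ± 0.389 CPM (-0.60 ± 0.18).

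The 8 genes of the spindle checkpoint and of anaphase were all negative (50.7% of all genes), with a median of -0.56. Of these 4 did not overlap, with the knockout lower (9.81% of all genes). Cdc20 (gene ID 107995, chromosome 4), the activator of the anaphase-promoting complex and the target of the checkpoint, measured 14.7, 13.1 and 12.4 CPM in knockout 1, 2 and 3 and 19.8, 28.9 and 26.1 CPM in wildtype 1, 2 and 3. The genotypes were clearly separate, with the largest difference of this group (-0.89 ± 0.19). Bub3 (gene ID 12237, chromosome 7), a checkpoint protein also present outside mitosis, measured 31.9, 30.4 and 32.2 CPM in knockout 1, 2 and 3 and 32.4, 40.5 and 53.0 CPM in wildtype 1, 2 and 3 (-0.41 ± 0.19). Wildtype 1 exceeded the highest knockout library by less than 1 CPM there, and most of the difference came from wildtype 2 and 3. The checkpoint kinase relative Bub1b (gene ID 12236, chromosome 2) measured 14.2, 13.3 and 10.9 CPM in knockout 1, 2 and 3 and 17.3, 27.2 and 14.1 CPM in wildtype 1, 2 and 3. Only wildtype 2 stood far out, and wildtype 3 lay within the knockout range (-0.60 ± 0.25). Separase, the protease that cuts cohesin at anaphase, encoded by Espl1 (gene ID 105988, chromosome 15), measured 13.3, 15.2 and 13.1 CPM in knockout 1, 2 and 3 and 17.3, 16.0 and 12.3 CPM in wildtype 1, 2 and 3, with overlapping groups (-0.13 ± 0.19). Its inhibitor securin, Pttg1, likewise overlapped at 6.98 ± 0.778 against 7.70 ± 1.19 CPM (-0.14 ± 0.22). Mad2l1, which binds Cdc20 in the checkpoint complex, stood at 10.1 ± 1.39 against 16.9 ± 3.25 CPM (-0.73 ± 0.21) and the checkpoint kinase Bub1 at 8.26 ± 0.136 against 11.8 ± 1.61 CPM (-0.52 ± 0.19), both without overlap. Ttk, the kinase that starts checkpoint signalling, stood at 3.52 ± 0.674 against 5.33 ± 2.43 CPM with overlap (-0.61 ± 0.39).

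All 6 kinetochore and centromere genes were negative (50.7% of all genes), with a median of -0.48. Of these 5 did not overlap, with the knockout lower (9.81% of all genes). Cenpa (gene ID 12615, chromosome 5), the histone H3 variant of centromeres, measured 18.2, 15.2 and 16.4 CPM in knockout 1, 2 and 3 and 19.9, 24.1 and 30.3 CPM in wildtype 1, 2 and 3 (-0.58 ± 0.19). The long kinetochore protein encoded by Cenpf (gene ID 108000, chromosome 1) measured 8.82, 10.8 and 9.79 CPM in knockout 1, 2 and 3 and 16.0, 16.8 and 14.3 CPM in wildtype 1, 2 and 3, with a narrow spread in each group (-0.68 ± 0.18). Cenpe (gene ID 229841, chromosome 3), a kinesin of the kinetochore, measured 12.7, 11.5 and 14.0 CPM in knockout 1, 2 and 3 and 18.7, 15.2 and 14.2 CPM in wildtype 1, 2 and 3 (-0.34 ± 0.18). Knockout 3 and wildtype 3 almost touched for this gene, at 14.0 and 14.2 CPM. Of the Ndc80 complex, which holds microtubules, Spc25 (gene ID 66442, chromosome 2) measured 7.86, 5.70 and 4.69 CPM in knockout 1, 2 and 3 and 7.78, 13.1 and 10.99 CPM in wildtype 1, 2 and 3. It was the only gene of this group with overlap, since knockout 1 lay just above wildtype 1 (-0.79 ± 0.27). Ndc80 (gene ID 67052, chromosome 17) measured 5.22, 5.28 and 5.27 CPM in knockout 1, 2 and 3 and 6.12, 7.23 and 6.03 CPM in wildtype 1, 2 and 3, with a smaller difference and no overlap (-0.30 ± 0.22). Its partner Nuf2 stood at 7.90 ± 0.155 against 10.4 ± 1.42 CPM, also without overlap (-0.39 ± 0.19).

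The 9 mitotic kinesins, motor proteins that move along or take apart microtubules, were all negative (50.7% of all genes), with a median of -0.51. Of these 6 did not overlap, with the knockout lower (9.81% of all genes). Kif2c (gene ID 73804, chromosome 4), a kinesin that shortens microtubules at centromeres, measured 5.40, 4.86 and 3.29 CPM in knockout 1, 2 and 3 and 8.04, 11.8 and 10.7 CPM in wildtype 1, 2 and 3. It showed the largest difference among the kinesins (-1.16 ± 0.26) and rested on 40 to 184 counts per library. Kif11 (gene ID 16551, chromosome 19), which pushes spindle poles apart, measured 20.1, 19.7 and 18.5 CPM in knockout 1, 2 and 3 and 26.1, 24.6 and 23.6 CPM in wildtype 1, 2 and 3 (-0.35 ± 0.15). The difference was small but the groups were separate. Kif20a (gene ID 19348, chromosome 18), needed for cytokinesis, measured 13.0, 13.1 and 11.1 CPM in knockout 1, 2 and 3 and 17.1, 22.5 and 14.8 CPM in wildtype 1, 2 and 3 (-0.54 ± 0.20). Kif23 (gene ID 71819, chromosome 9), the motor of the centralspindlin complex, measured 14.9, 15.3 and 13.1 CPM in knockout 1, 2 and 3 and 18.4, 17.2 and 13.6 CPM in wildtype 1, 2 and 3, with wildtype 3 inside the knockout range (-0.19 ± 0.18). The chromosome-bound kinesins Kif22 and Kif4 stood at 8.70 ± 0.741 against 15.5 ± 3.39 CPM (-0.83 ± 0.21) and 10.1 ± 1.21 against 14.6 ± 1.72 CPM (-0.54 ± 0.19), both without overlap. Kif18a, which limits microtubule growth, stood at 3.12 ± 0.315 against 4.44 ± 0.798 CPM without overlap (-0.51 ± 0.29), and its relative Kif18b at 5.24 ± 1.01 against 6.19 ± 1.45 CPM with overlap (-0.24 ± 0.27). Kif20b spread most among the wildtype libraries, from 3.41 CPM in wildtype 2 to 11.4 CPM in wildtype 3, and overlapped (-0.49 ± 0.39).

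Of the 7 genes of spindle and chromosome structure (median -0.58), 6 were negative (50.7% of all genes). In 6 the groups did not overlap, with the knockout lower (9.81% of all genes). Pimreg (gene ID 109212, chromosome 11), a mitotic regulator, had the largest difference of all 47 genes (-1.26 ± 0.28). It measured 5.94, 5.98 and 5.18 CPM in knockout 1, 2 and 3 and 9.09, 19.2 and 12.8 CPM in wildtype 1, 2 and 3, and its wildtype libraries spread more than its knockout libraries. Tacc3 (gene ID 21335, chromosome 5), which stabilises spindle microtubules, measured 17.5, 17.999 and 16.3 CPM in knockout 1, 2 and 3 and 25.6, 28.9 and 28.4 CPM in wildtype 1, 2 and 3 (-0.68 ± 0.15). Both groups were tight and far apart for their spread. Tpx2 (gene ID 72119, chromosome 2), an activator of the Aurora A kinase, measured 19.2, 20.2 and 14.5 CPM in knockout 1, 2 and 3 and 26.3, 36.4 and 24.5 CPM in wildtype 1, 2 and 3 (-0.69 ± 0.21). Top2a (gene ID 21973, chromosome 11), the topoisomerase that untangles sister chromatids, measured 81.7, 88.8 and 84.1 CPM in knockout 1, 2 and 3 and 107, 96.4 and 107 CPM in wildtype 1, 2 and 3. The groups did not overlap, although the difference was one of the smaller ones (-0.29 ± 0.14). Hmmr and Nusap1, which bind spindle microtubules, stood at 9.46 ± 2.01 against 14.1 ± 1.68 CPM (-0.58 ± 0.21) and 14.0 ± 1.84 against 20.3 ± 3.74 CPM (-0.53 ± 0.20) without overlap.

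Mki67 (gene ID 17345, chromosome 7), whose product Ki-67 coats mitotic chromosomes and serves as the usual marker of cycling cells, was the only gene that was not negative. It measured 73.3, 65.0 and 66.4 CPM in knockout 1, 2 and 3 and 83.0, 63.8 and 49.9 CPM in wildtype 1, 2 and 3, and its wildtype libraries spread so widely that both the highest and the lowest of the 6 values were wildtype (0.06 ± 0.20). With library size alone in place of TMM its value was -0.14, and without wildtype 3 it was -0.12, so no direction can be given for it. Top2a and Mki67 have the highest CPM of the members and did not move together across the wildtype libraries. In wildtype 3 Mki67 was at its lowest, while Top2a stood at 107 CPM in both wildtype 1 and wildtype 3.

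The 4 cytokinesis genes were negative (50.7% of all genes), with a median of -0.35. Of these 3 did not overlap, with the knockout lower (9.81% of all genes). Anln (gene ID 68743, chromosome 9), an actin-binding protein of the cleavage furrow, measured 16.7, 27.2 and 19.1 CPM in knockout 1, 2 and 3 and 30.3, 40.8 and 29.0 CPM in wildtype 1, 2 and 3 (-0.67 ± 0.22). The other genes of this group differed less. Racgap1 (gene ID 26934, chromosome 15) of the centralspindlin complex measured 25.2, 26.0 and 18.8 CPM in knockout 1, 2 and 3 and 30.3, 30.1 and 29.3 CPM in wildtype 1, 2 and 3, with the 3 wildtype libraries close together (-0.36 ± 0.17). Its partner Ect2 (gene ID 13605, chromosome 3), which acts at the cleavage furrow, measured 13.1, 12.5 and 9.63 CPM in knockout 1, 2 and 3 and 17.9, 9.74 and 12.3 CPM in wildtype 1, 2 and 3, with overlap (-0.18 ± 0.25). Prc1 (gene ID 233406, chromosome 7), which bundles the microtubules of the spindle midzone, measured 19.0, 22.6 and 17.6 CPM in knockout 1, 2 and 3 and 26.1, 24.2 and 25.1 CPM in wildtype 1, 2 and 3 (-0.35 ± 0.16). The groups of Prc1 did not overlap, although knockout 2 (22.6 CPM) lay near wildtype 2 (24.2 CPM). For Ect2 the order of the genotypes rested on wildtype 1, without which the value was 0.071.

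**Figure D3:**
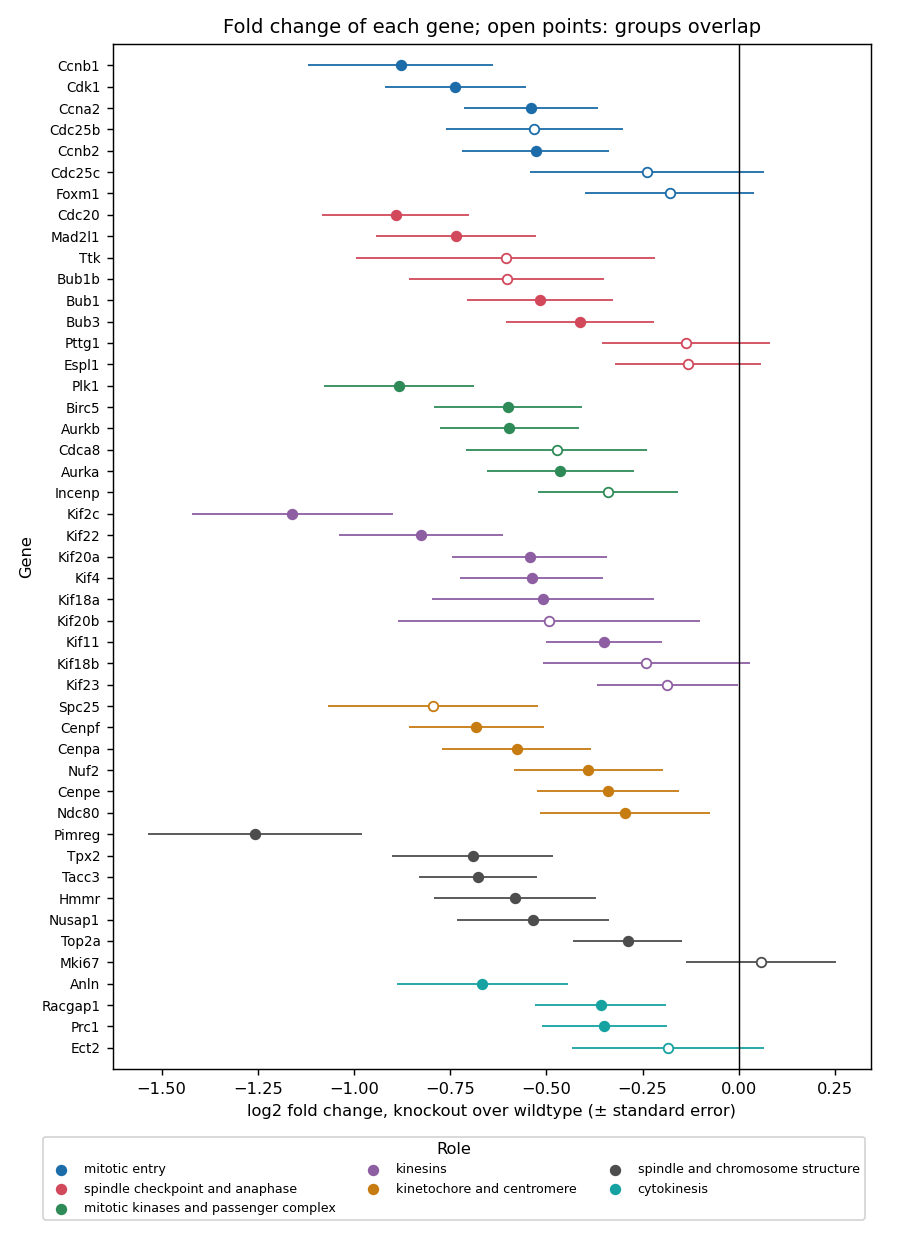
Log2 fold change of knockout over wildtype with its standard error (3 libraries a group) for each of the 47 genes, coloured by role; filled points mark genes whose groups do not overlap and open points those that overlap. Values run from -1.26 for Pimreg to 0.06 for Mki67, and the 32 filled points are all left of 0.

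The 15 genes whose groups overlapped include genes with differences as large as those of genes without overlap, such as Spc25 (-0.79 ± 0.27), Ttk (-0.61 ± 0.39) and Bub1b (-0.60 ± 0.25), and genes near 0 such as Espl1, Pttg1, Foxm1 and Ect2. Wildtype 2 was the low wildtype library for Ttk, Kif20b, Kif18b, Ect2 and Incenp, and wildtype 3 for Mki67, Foxm1, Espl1, Bub1b, Cdc25b, Cdc25c and Kif23. Wildtype 1 was the low one for Cdca8, Spc25 and Pttg1.

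Compared per length, as CPM per kilobase of the exons of each gene, the members covered about an order of magnitude in the wildtype libraries. Top2a led at 19.9 CPM per kilobase, followed by Cenpa at 15.1, Cdc20 at 13.9 and Ccnb2 at 13.2. At the other end stood Ttk at 1.84, Cenpf at 1.41, Kif18a at 1.32 and Kif20b at 1.31. Mki67, the second gene by CPM, has 10061 bases of exons and stood at 6.51 CPM per kilobase. Across the members, which are not independent replicates, Spearman's rank correlation of log2 fold change with exon length was 0.24, and across the 12780 tested genes with a length it was 0.312. Members with up to 3369 bases of exons had a median log2 fold change of -0.53 and those above it -0.53, where all genes tested had medians of -0.13 and 0.11 in the same spans. With trends on length and GC content removed, long members such as Cenpf (-0.96) and Top2a (-0.43) had larger differences.

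Markers of other cell types differed between the genotypes and among the wildtype libraries. Summed over 13 chondrocyte markers the levels were 26664, 15641 and 11829 CPM in knockout 1, 2 and 3, 10098 CPM in wildtype 1, and 4070 and 3554 CPM in wildtype 2 and 3. Wildtype 1 was the nearest wildtype library to the knockout libraries in this sum. All 13 chondrocyte markers had a positive fold change (median 2.11), where 50.7% of all genes tested were negative. All 16 macrophage markers (median 1.16) and all 12 endothelial markers (median 1.29) were positive too. Higher in every knockout library were 11 chondrocyte, 8 macrophage, 4 endothelial, 5 neutrophil and 0 erythroid markers, against 10.6% of all genes tested. Macrophage markers summed to 193 to 466 CPM in the knockout libraries and to 167, 170.2 and 114 CPM in wildtype 1, 2 and 3, and endothelial markers to 142 to 250 CPM and to 145, 66.2 and 54.6 CPM. Neutrophil markers (9 of 9 tested positive) summed to 58.4 to 197 CPM in the knockout libraries and to 25.5, 20.6 and 57.1 CPM in wildtype 1, 2 and 3, and erythroid markers (6 of 6 tested positive) to 50.1 to 403 CPM and to 114, 17.5 and 115 CPM. Wildtype 1 was thus the highest wildtype library for endothelial markers, about level with wildtype 2 for macrophage and with wildtype 3 for erythroid markers, and below wildtype 3 for neutrophil markers. None of these markers was at 0 in all 3 libraries of a genotype. Lymphoid and skeletal muscle markers were low, at no more than 5.04 and 41.0 CPM in any library. The part of these cells in the levels of the mitotic genes was not tested.

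In the mean level of the 47 mitotic genes wildtype 1 (0.18) lay below wildtype 2 and 3 (0.32 and 0.23). It lay above knockout 1, 2 and 3 (-0.21, -0.18 and -0.35). Wildtype 1 was the lowest wildtype library in 20 of the 47 genes (42.6%, against 31.4% of all genes tested). Each knockout library lay below wildtype 1 in 43 of the 47 genes, which was so for 24.5% of all genes tested. The median of the members was -0.44 when wildtype 1 was the only control and -0.59 without wildtype 1. Knockout 3 and wildtype 1, a pair picked after their values were seen, were close in chondrocyte (11829 and 10098 CPM), macrophage (193 and 167 CPM) and endothelial markers (142 and 145 CPM). They were apart in neutrophil (58.4 and 25.5 CPM), erythroid (50.1 and 114 CPM), skeletal muscle (5.92 and 27.98 CPM) and osteoblast markers (342406 and 276963 CPM), so the pair is not matched for other cells. Between them all 47 mitotic genes were higher in wildtype 1, against 50.4% of all genes tested. That is 1 library of each genotype and has no replicate check. Knockout 3 held the lowest value of 29 of these genes, which were chosen with the contrast known. The comparison therefore supports nothing further, and the part of other cells in it was not tested.

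**Figure D4:**
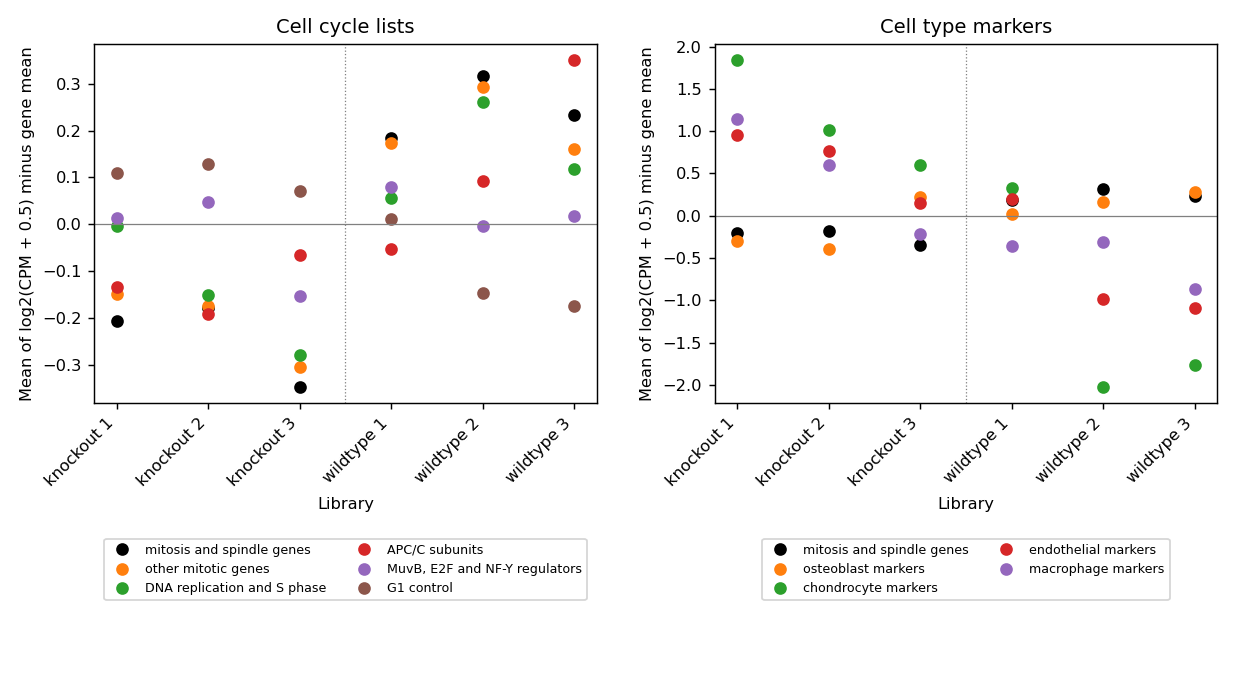
Mean of log2(CPM + 0.5) minus each gene's mean over 6 libraries, per library, for cell cycle lists (left) and for marker lists of cell types (right); each point is 1 list in 1 library and black points are the 47 mitosis and spindle genes in both panels. The black points lie at -0.21, -0.18 and -0.35 in the knockout and at 0.18, 0.32 and 0.23 in the wildtype libraries, while chondrocyte markers run from 1.84 in knockout 1 down to -2.02 in wildtype 2.

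Other genes of the cell cycle were examined in 5 lists of 156 genes that hold none of the 47, chosen with earlier results of these data known. In the edgeR test 0 of the 155 genes tested passed in either direction (0.0% of all genes tested). DESeq2 called 2 of the 155, where it called 1.84% of all genes tested. Of 62 other mitotic genes 57 were negative, with a median of -0.50, and 31 lay lower in every knockout library, against 50.7% negative and 9.81% lower in every knockout library among all genes tested. Kif14, a kinesin of cytokinesis, stood at 4.49 ± 0.870 against 9.07 ± 1.42 CPM (-1.01 ± 0.24, adjusted p = 0.273 in edgeR), and the mitotic kinase Pbk at 8.13 ± 1.09 against 15.0 ± 2.56 CPM (-0.88 ± 0.21, adjusted p = 0.273 in edgeR). Of 42 genes of DNA replication and S phase 36 were negative, with a median of -0.32, and 13 lay lower in every knockout library (9.81% of all genes). Tk1, the thymidine kinase of S phase, stood at 7.39 ± 0.839 against 13.8 ± 3.94 CPM (-0.89 ± 0.24, adjusted p = 0.273 in edgeR). The replication factor Gins3 stood at 1.99 ± 0.247 against 4.85 ± 2.57 CPM (-1.27 ± 0.41, adjusted p = 0.285 in edgeR).

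Subunits of the anaphase-promoting complex and regulators of the cell cycle promoters had medians nearer to 0. The 15 subunits and activators of the anaphase-promoting complex had a median of -0.27, with 14 negative and 4 lower in every knockout library (9.81% of all genes). Among them Anapc13 stood at 9.03 ± 1.203 against 14.7 ± 1.93 CPM (-0.70 ± 0.20, adjusted p = 0.273 in edgeR) and Anapc11 at 24.6 ± 1.77 against 34.1 ± 8.96 CPM (-0.47 ± 0.21, adjusted p = 0.346 in edgeR). The 21 MuvB, E2F and NF-Y regulators that act on these promoters had a median of -0.09. Of these 11 were negative and 2 lower in every knockout library, which is near the shares of all genes (50.7% and 9.81%). Nfya, the DNA-binding subunit of NF-Y, stood at 22.8 ± 3.47 against 17.1 ± 3.29 CPM (0.41 ± 0.20, adjusted p = 0.364 in edgeR). Rbl1, the pocket protein p107, stood at 14.5 ± 1.09 against 18.5 ± 4.33 CPM (-0.36 ± 0.20, adjusted p = 0.402 in edgeR).

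Genes of G1 control had a positive median of 0.23, with 4 of 15 tested genes negative, 3 higher in every knockout library (10.6% of all genes) and 2 lower (9.81% of all genes). Cdkn1a, which encodes the Cdk inhibitor p21, stood at 227 ± 24.4 against 166 ± 9.17 CPM and was higher in every knockout library (0.45 ± 0.16, adjusted p = 0.293 in edgeR). Cdkn2c, which encodes the inhibitor p18, stood at 7.03 ± 0.494 against 11.2 ± 3.37 CPM and was lower in every one (-0.67 ± 0.24, adjusted p = 0.302 in edgeR).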

How the data were processed

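RNA sequencing counts of 6 libraries were used, 3 labelled knockout and 3 labelled wildtype. The authors deposited raw counts, without normalization, in 1 table of 27179 Entrez gene IDs with 0 columns left over. No pair of libraries agreed within sampling noise (chi-square of at least 18.3 per degree of freedom over genes with 10 or more counts in the pair). The submitters' processing notes name CASAVA 1.7, Subread, featureCounts and build mm10. Whether counting used strand is not given in the sources used here, so reads of overlapping genes cannot be told apart.

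Symbols came from the RefSeq table of GRCm38.p6 and GENCODE M21, which named 93.1% of the IDs. Exon lengths came from GENCODE M21 (basic transcripts) and promoter windows from RefSeq (GRCm38.p6, the assembly of mm10). Protein sequences were not used here. Tests were run over all genes with edgeR 4.0.16 in R 4.3.3 (filterByExpr, TMM factors of 0.813 to 1.09, two-sided quasi-likelihood test, Benjamini-Hochberg adjustment over 13505 genes, threshold 0.05). The same code was also run on simulated counts, drawn for each gene on its own, which hold no difference in cell mixture between libraries. A standard error is the fold change divided by the square root of its F statistic, and ± after a level is the SD over 3 libraries. The biological coefficient of variation was 24.2%.

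The members and the lists were chosen with earlier results of these data known. Values in every library are given for Cdk1, Ccnb1, Cdc20, Plk1, Pimreg, Kif2c, Tacc3, Mki67 and Top2a, and in each role for the 3 members of highest mean CPM and both extremes of fold change. Of each other list the 2 genes of smallest p are named. Correlations between members over the libraries are not given, since the libraries fall into 2 genotypes. Alternatives were DESeq2 1.42.0, limma 3.58.1 (voom), other scalings and filters, the replicate number as a block, leaving out each library, wildtype 1 as the only control, and removal of trends on exon length and GC content.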

Additional observations from a re-analysis of the deposited data

How the results depend on the processing

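The median log2 fold change of the 47 genes was negative under all 16 alternatives. It was -0.72 with library size alone, where the median of all genes shifted to -0.21, and -0.44 with wildtype 1 as the only control, which takes its spread from the knockout libraries alone. It ran from -0.59 (without wildtype 1) to -0.46 (without wildtype 2) when 1 library was left out. With length and GC trends removed it was -0.57. The count of genes lower in every knockout library ran from 32 to 37 when 1 library was left out, with 11.6% to 24.0% of all genes. It was 36 with library size alone (25.6% of all genes) and 35 with length and GC trends removed (13.8%). The count higher in every knockout library ran from 0 to 1.

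Genes called over the whole table numbered 0 in edgeR, 24 without the filter on low counts, 248 in DESeq2 and 0 to 409 when 1 library was left out (409 without wildtype 1). The other cell cycle genes called numbered 2 in DESeq2 and 0 to 4 when 1 library was left out (4 without wildtype 1). The shares over all genes were 1.84% in DESeq2 and 2.96% without wildtype 1. With the replicate number as a block edgeR called 236 genes. Knockout and wildtype libraries of the same number deviated from their group means with correlations across genes of 0.115, -0.074 and 0.222. Libraries of unlike number gave -0.354 to 0.347. With 3 libraries a group these values cannot decide whether libraries were paired. No library pair is known to belong together, so the block is no measure of pairing here.

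A sign change was seen in 3 of the 47 genes. Mki67 was at -0.14 with library size alone, -0.28 with wildtype 1 as the only control, -0.19 with length and GC trends removed, and between -0.12 and 0.25 when 1 library was left out. Ect2 ran from -0.38 to 0.071 when 1 library was left out (0.071 without wildtype 1), and Pttg1 stood at 0.11 with wildtype 1 as the only control. For each of these the cause was not tested. Over all 47 genes and 16 alternatives, 700 values moved by less than 1 SD between libraries, 45 by more without changing sign, and 7 changed sign. Depth limits Cdc25c, Kif18a, Ttk, Kif2c and Kif20b most, with 31 to 191 counts per library.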

Other observations

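Genes outside the list that carry the same promoter letters were examined in the same libraries. Only members of the list were left out, so the other mitotic genes described above may be among these genes. Of those 62 mitotic genes 31 lay lower in every knockout library. Their part in the shares that follow was not tested. Of the other genes tested, 573 held both TTTGAA and CCAAT in their promoter window. Their median log2 fold change was -0.06, and 12.0% of them lay lower in every knockout library and 8.55% higher. Over all 10341 other genes with a window the median was -0.01, with 9.95% lower and 10.4% higher, and over the 5164 with neither motif it was 0.00, with 9.22% lower and 10.6% higher. Among the 39 mitotic genes with a window, the 24 with both motifs had a median of -0.50, and 15 of them (62.5%) lay lower in every knockout library. The 7 with neither motif had a median of -0.53, and 6 of them (85.7%) lay lower. Those 7 include Tacc3, Mad2l1 and Birc5, which lay lower in every knockout library. They also include Pttg1, whose window lay inside the span of its gene. Of the 4 members with TTTGAA alone 3 lay lower, and of the 4 with CCAAT alone 3 did. The members were chosen with this contrast known, so these shares only describe them. The part of the motifs in the differences was not tested.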
